A study of Phycomyces blakesleeanus with 24 samples.

Results

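Respiratory complex I (NADH:ubiquinone oxidoreductase) is described here through 29 nuclear genes of the filamentous fungus Phycomyces blakesleeanus. The members were chosen by their symbols, which begin with NDUF in the RefSeq gene table of assembly Phybl2, and 29 of the 14490 gene IDs in the deposited tables met that rule. The 3 NDUFA4 copies were left out by the rule, since that protein is counted with cytochrome oxidase in mammals. All 29 members were measured in each of 4 light-dark comparisons.

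RNA was sequenced from 8 groups of 3 libraries each, grown on potato dextrose agar (PDA). The groups were mycelium and sporangiophores, the aerial stalks that carry the spores, of a wild type strain and of ΔL51, a photoreceptors mutant by its label, each in light and in darkness. The labels did not name the genes altered in ΔL51, the age of the cultures or the light dose, and every group shared the same medium and RNA protocol. The authors set aside 4 libraries for their dispersion, leaving 2 dark and 3 light libraries for wild type mycelium, 2 and 2 for wild type sporangiophores, 3 and 3 for mutant mycelium, and 2 and 3 for mutant sporangiophores.

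Complex I takes electrons from NADH and passes them through a flavin and a chain of iron-sulfur clusters to ubiquinone, and it pumps protons across the inner mitochondrial membrane as it does so. Its matrix arm holds the electron path and its membrane arm the proton channels, whose core subunits are encoded in mitochondrial DNA in most fungi and are not among the genes described. Accessory subunits surround this core in eukaryotes, and an acyl carrier protein is bound to it. Some yeasts, Saccharomyces cerevisiae among them, have lost complex I and use alternative NADH dehydrogenases that pump no protons.

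By role, the 29 genes comprised 8 for core subunits of the matrix arm, 9 for accessory subunits of that arm, 9 for accessory subunits of the membrane arm and 3 for the acyl carrier NDUFAB1. Their roles are known from mammals and other fungi and were assigned here from the symbols. In the authors' deposited table for wild type mycelium, the average log2 CPM (counts scaled to library size) of the members ran from 2.86 for NDUFA6 to 9.08 for NDUFA13, with a median of 7.51 against 4.64 for all genes. Of the 29, 26 lay in the top quintile, at 6.22 or above. Their genes were short, with a median span of 802 bases against 1400 for all genes, and 22 had a span under that median. Over all genes with a span and a fold other than 0, fold had a Pearson r with log2 CPM of 0.41 in wild type sporangiophores (14346 genes) and of -0.51 in mutant sporangiophores (14355 genes). With the log2 of gene span the r was -0.03 and 0.05. These values cover genes of all levels and do not give the relation to span at the level of the members, for which values follow below. Values per library were not analysed here, so the spread between replicates could not be shown. In its place, an approximate 95% interval was computed for each log2 fold change from the fold and its likelihood ratio. A gene was called where the authors' FDR was under 0.05, and a positive fold is taken to mean more RNA in light, as the table titles imply, since no header states it.

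In wild type sporangiophores, 17 complex I genes were higher in light, 0 were lower and 12 missed the threshold in the authors' deposited table. Over all genes, 7.23% were called higher and 1.18% lower. At an unadjusted p under 0.05 of the authors' edgeR test, 22 members were higher and 0 lower. With an F reference of 12 degrees of freedom in place of the chi-square, 8 members were called higher. The shares of all genes in these last settings are not given here, and 7.23% and 1.18% do not apply to them. The median log2 fold change of the members was 1.19 in the authors' deposited table, beside -0.05 over all genes. In RNA from bulk material, a change in transcript amount and a change in the make-up or stage of the material cannot be told apart.

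The accessory subunits of the matrix arm held the 2 largest rises of wild type sporangiophores. NDUFS4, which holds the NADH-oxidising module in place in mammals, rose 5.79-fold in the authors' deposited table (log2 fold change 2.53, FDR 5.4e-06). Its approximate interval ran from 1.62 to 3.45. Ndufa5, an accessory subunit at the middle of the arm, rose by 2.35 (FDR 2.6e-07) in the authors' deposited table. Ndufa6, a small protein of the LYR family that binds the acyl carrier, rose by 1.94 (FDR 4.9e-06) there, Ndufs6, a zinc-binding subunit, by 1.64 (FDR 0.0028) and NDUFA9, related to short-chain dehydrogenases, by 1.27 (FDR 0.0088), all in the authors' deposited table. NDUFA12 (0.65), NDUFA6_2 (1.04) and NDUFA6 (-0.37) missed the threshold in the authors' deposited table, as did Ndufa2 (FDR 0.126). Thus 5 of 9 genes of this class passed.

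Of the 8 core genes, 5 were called higher in wild type sporangiophores. NDUFS8, which carries iron-sulfur clusters near the ubiquinone end, rose by 2.00 (FDR 6.2e-06) in the authors' deposited table, and NDUFS7, which holds the last cluster before ubiquinone, by 1.74 (FDR 0.0019). Ndufs3 (1.14), NDUFS1_2 (1.19) and NDUFS1 (0.91) were called with FDR values of 0.0256, 0.0223 and 0.0266 in the authors' deposited table. The flavoprotein genes had the lowest folds of the core. Ndufv1, which binds NADH and the flavin, had -0.03 (FDR 0.984) and its neighbour NDUFV2 had 0.35 (FDR 0.622) in the authors' deposited table. Their approximate intervals, -0.83 to 0.77 and -0.25 to 0.95, lay below those of NDUFS8 (1.27 to 2.72), NDUFS4 and Ndufa5 (1.59 to 3.10). Both intervals overlapped those of NDUFS1 (0.34 to 1.49) and Ndufs3 (0.43 to 1.85). In other roles NDUFA11, NDUFA6 and NDUFA11_2 had folds of -0.69, -0.37 and 0.32. The ordering of the genes was noticed in the values and was not tested between genes.

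In the membrane arm, 6 of 9 genes were called higher in wild type sporangiophores. NDUFB8 (2.01), NDUFA1 (1.89), NDUFA8 (1.76), NDUFB11 (1.74), Ndufb9 (1.48) and NDUFB7 (1.25) rose in the authors' deposited table, with FDR values from 2.3e-05 to 0.0258. NDUFA8 and NDUFB7 are small cysteine-rich proteins on the outer face of the inner membrane in mammals, and Ndufb9 is another LYR protein. NDUFA13 had 1.34 (FDR 0.148), NDUFA11_2 0.32 (FDR 0.660) and NDUFA11 -0.69 (FDR 0.620) in the authors' deposited table. Of the acyl carrier genes, NDUFAB1_2 rose by 1.14 (FDR 0.0025), while Ndufab1 had 1.12 (FDR 0.0532) and NDUFAB1 0.59 (FDR 0.353) in the authors' deposited table.

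In mutant sporangiophores, 23 of the 29 genes were lower in light, 0 were higher and 6 missed the threshold in the authors' deposited table. In that comparison 12.3% of all genes were called lower and 3.31% higher. By the same edgeR test, 24 members were lower and 0 higher at an unadjusted p under 0.05. The share of all genes at that threshold is not given here. The median of the members was -1.47 in the authors' deposited table, beside 0.05 over all genes, and all 29 folds were negative. The direction rests on the table's title, and with its sign turned all of them would be positive.

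NDUFS4 also had the largest change of mutant sporangiophores, 13.2-fold lower in the authors' deposited table (log2 fold change -3.73, FDR 4.6e-16). Its approximate interval ran from -4.58 to -2.88. Ndufa5 followed with -3.30 (FDR 5.6e-20), NDUFA1 with -2.95 (FDR 5.2e-15), NDUFS7 with -2.88 (FDR 3.5e-18), NDUFS8 with -2.71 (FDR 5.3e-15) and NDUFB8 with -2.63 (FDR 4.9e-12) in the authors' deposited table. Ndufb9 (-2.23) and Ndufs6 (-2.01) were next among the called members of that authors' deposited table. By role, 7 of 9 matrix arm accessory genes, 8 of 9 membrane arm genes, 3 of 3 acyl carrier genes and 5 of 8 core genes were called lower. The acyl carrier genes had small falls of 0.81 (NDUFAB1), 0.98 (Ndufab1) and 1.40 (NDUFAB1_2), written as sizes, in the authors' deposited table.

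Among the core genes of mutant sporangiophores, Ndufs3 fell by 1.38 and NDUFS1 by 0.94 in the authors' deposited table, with FDR values of 1.4e-04 and 0.0018. Ndufv1 had -0.33 (FDR 0.578), NDUFV2 -0.44 (FDR 0.307) and NDUFS1_2 -0.27 (FDR 0.678) in the authors' deposited table. The flavoprotein genes were thus called in neither sporangiophore table, and their approximate intervals of -0.97 to 0.30 and -0.96 to 0.09 lay above that of NDUFS8 (-3.35 to -2.07). Both overlapped that of NDUFS1 (-1.43 to -0.45). The remaining genes without a call were NDUFA6_2 (-1.01, FDR 0.0594), NDUFA6 (-0.61, FDR 0.631) and NDUFA11 (-0.53, FDR 0.312) in the authors' deposited table. NDUFA11_2 (-1.74), NDUFA9 (-1.82), NDUFA8 (-1.53), NDUFB11 (-1.49), NDUFA12 (-1.47), NDUFA13 (-1.46), NDUFB7 (-1.20), Ndufa2 (-1.16) and Ndufa6 (-1.91) were called lower in the authors' deposited table.

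**Figure D1:**
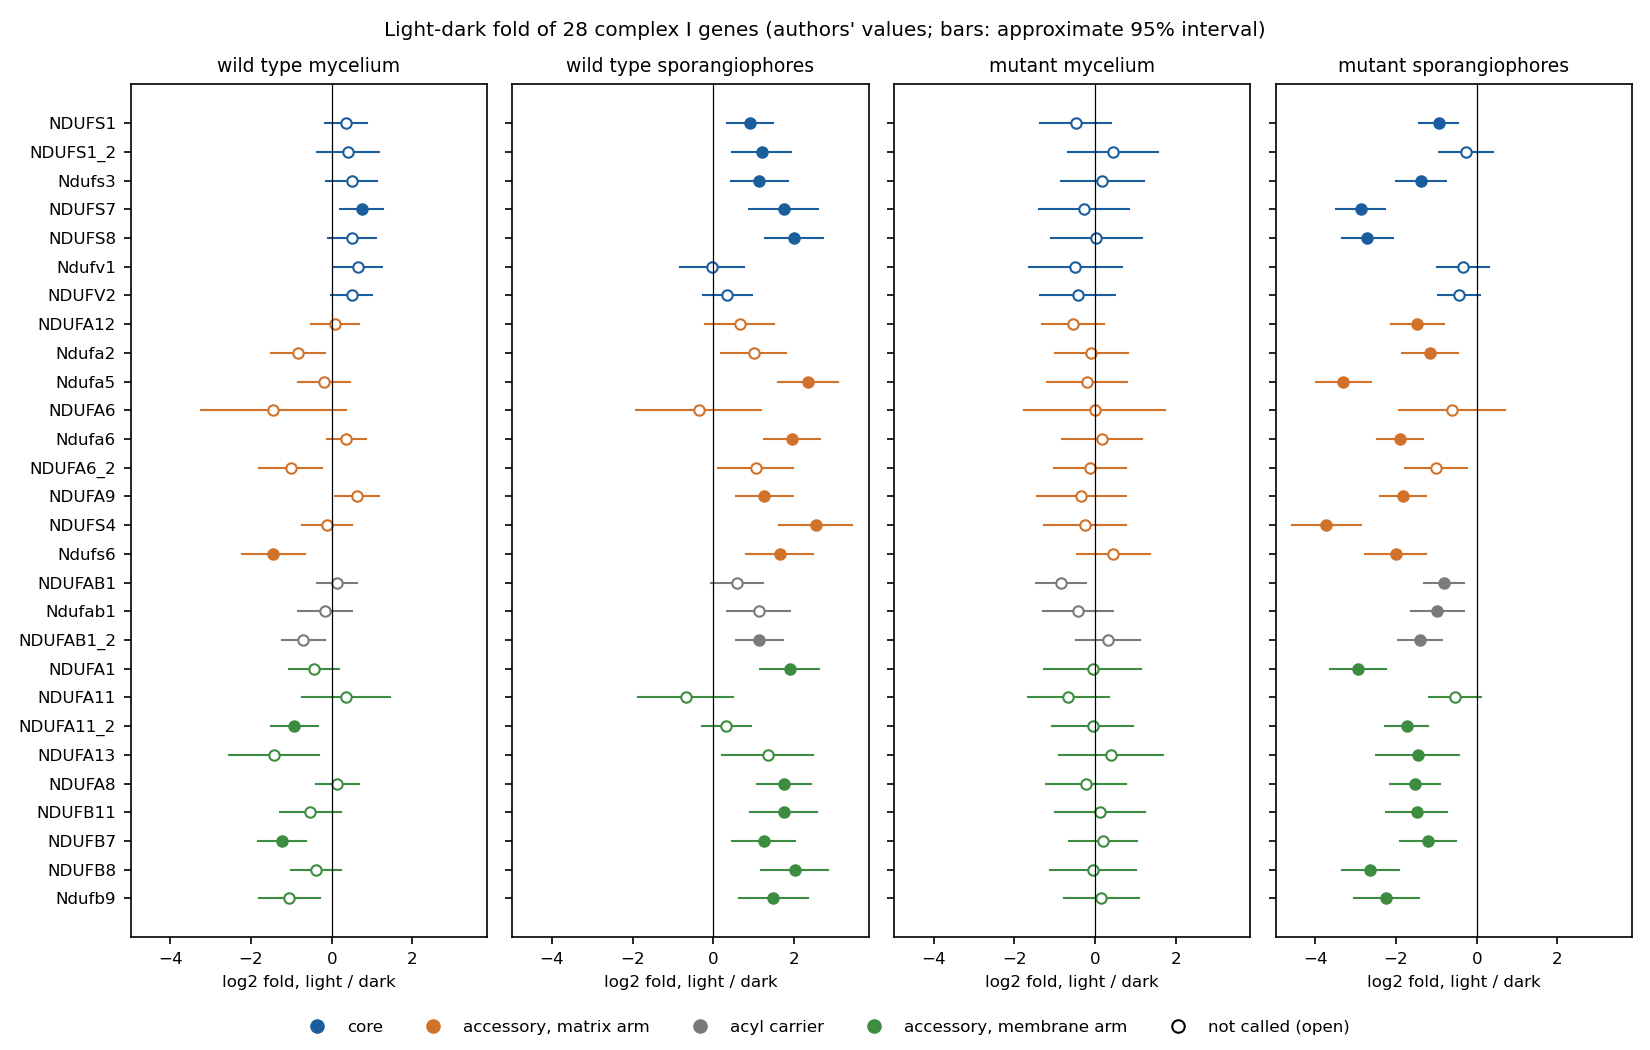
Light-dark log2 fold change (x axis) of 28 complex I genes (y axis, grouped by role in colour) in 4 panels, 1 per comparison. Filled points were called at an FDR under 0.05, open points were not, and bars are approximate 95% intervals. The 17 filled points of wild type sporangiophores lie right of 0 and the 22 of mutant sporangiophores left of 0.

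The question of how far the strains differed was put to each gene as the wild type fold less the mutant fold, with an approximate z test adjusted by the Benjamini-Hochberg method over all genes. In sporangiophores, 25 of the 29 members had a more positive fold in wild type and 0 a more negative one, where 14.0% of all genes were more positive and 5.55% more negative. Less the genes of like level 15 members passed as more positive, and less those of like level and span 8 did. The median difference of the members was 2.52 on the log2 scale. For NDUFS4 the difference was 6.26 with an approximate interval of 5.02 to 7.51, and for Ndufa5 it was 5.65 with 4.64 to 6.66. The 4 members that missed the threshold were NDUFV2 (0.78, adjusted p = 0.175), Ndufv1 (0.31, adjusted p = 0.746), NDUFA6 (0.25, adjusted p = 0.907) and NDUFA11 (-0.15, adjusted p = 0.913), by that approximate test. Their approximate intervals were -0.01 to 1.58, -0.71 to 1.33, -1.78 to 2.27 and -1.50 to 1.19, so differences over 1 on the log2 scale lay within each of them.

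The members that rose most in wild type sporangiophores were largely those that fell most in the mutant. Across the 29 genes the folds of the 2 strains had a Pearson r of -0.80 and a Spearman rho of -0.82, beside -0.51 and -0.47 over all 14410 genes. Genes are not independent replicates, and each point shares its expression level, its gene span and the dispersion of the authors' fit between both axes. The comparisons share no library. Among the 8 largest called folds of each table, 6 members were in both. Of the 17 members called higher in wild type, 16 (94.1%) were called lower in the mutant, and these made up 69.6% of the 23 mutant calls. Over all genes the corresponding shares were 77.7% of 1042 and 45.5% of 1779.

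**Figure D2:**
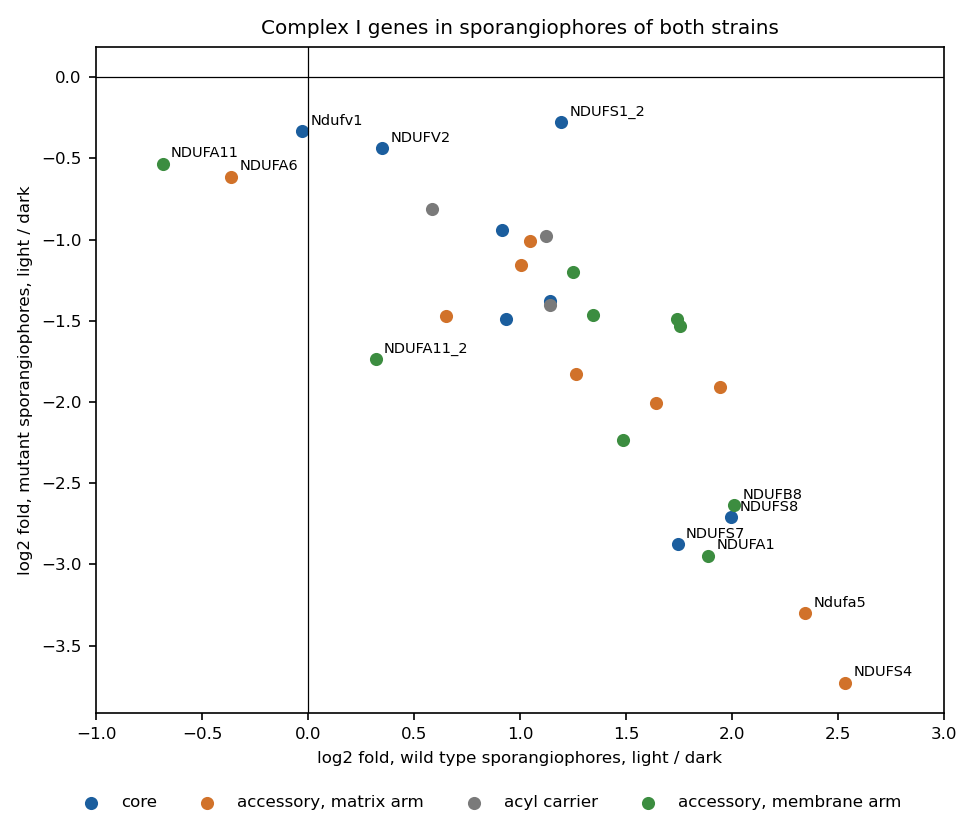
Log2 fold change in light against dark in wild type sporangiophores (x axis) and in mutant sporangiophores (y axis), 1 point per complex I gene, coloured by role. NDUFS4 (2.53 and -3.73) lies at the lower right, and Ndufv1, NDUFV2, NDUFA6 and NDUFA11 lie near the upper left.

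Genes of like expression level and span also moved in sporangiophores, so the members were set beside them. For each member the 200 genes nearest in average log2 CPM were taken, 2514 genes in all. Of these, 21.7% were called higher and 0.915% lower in wild type sporangiophores, beside 58.6% and 0% of the members. In mutant sporangiophores 31.6% were lower and 1.95% higher, beside 79.3% and 0% of the members. With the median fold of the nearest 200 genes subtracted, the median of the members went from 1.19 to 0.67 in wild type and from -1.47 to -0.95 in the mutant. With expression level and gene span both used to find the nearest 200 (2322 genes in all), the medians were 0.25 and -0.19. Of those genes 29.8% were called higher and 0.517% lower in wild type sporangiophores, and 42.0% lower and 1.42% higher in mutant sporangiophores. In both sets a gene near several members was counted once, so members that share nearest genes weigh less in these shares. The second set had median folds of 0.56 in wild type and -0.63 in the mutant. For single members the median of the nearest 200 ran from -0.17 (NDUFA6) to 1.74 (NDUFA13) in wild type. In the mutant it ran from -2.78 (NDUFA13) to 0.35 (NDUFA6). For the shortest member, Ndufab1 (511 bases), it was 1.48 in wild type and -2.26 in the mutant. For the longest, NDUFS1 (3275 bases), it was 0.40 and -0.38. With level alone matched, the medians were 0.45 and -0.47 for Ndufab1, and 1.22 and -1.20 for NDUFS1. Less genes of like level and span, 16 of 29 members lay above their nearest genes in wild type, and 13 of 29 did in the mutant.

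With level alone subtracted, the strain difference of Ndufv1 was -2.07 (adjusted p = 9.0e-04, approximate z test). It was the only member to pass as more negative in wild type there, where 6.15% of all genes did, and 25 of 29 differences were positive. With level and span subtracted, 2 members passed the test in wild type and 8 in mutant sporangiophores. The shares of all genes that passed there are not given here, so these counts do not set the members apart. Ndufv1 (-0.49 in wild type and 0.06 in the mutant) and NDUFV2 (-0.36 and 0.35) passed in neither. In wild type sporangiophores NDUFS8 was higher by 1.27 (adjusted p = 0.0259, approximate z test over all genes) and NDUFA11_2 lower by 1.03 (adjusted p = 0.0336, written as a size). In mutant sporangiophores NDUFS8 (-1.87), NDUFA9 (-1.44), NDUFS4 (-1.35), NDUFS7 (-1.08) and NDUFA12 (-0.93) were lower than genes of like level and span. Ndufab1 (1.28), NDUFB11 (1.22) and Ndufa2 (1.09) were higher than such genes there, although each had a negative fold as deposited. The difference between the strains then passed for 8 members with a more positive wild type fold, among them NDUFS8 (3.14), NDUFS4 (2.37) and NDUFA9 (2.24), and for 2 with a more negative one, Ndufab1 (-1.64) and Ndufa2 (-1.59). Of all genes 9.63% were more positive and 5.76% more negative there. The part of level and span in the changes as deposited was not tested further.

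**Figure D3:**
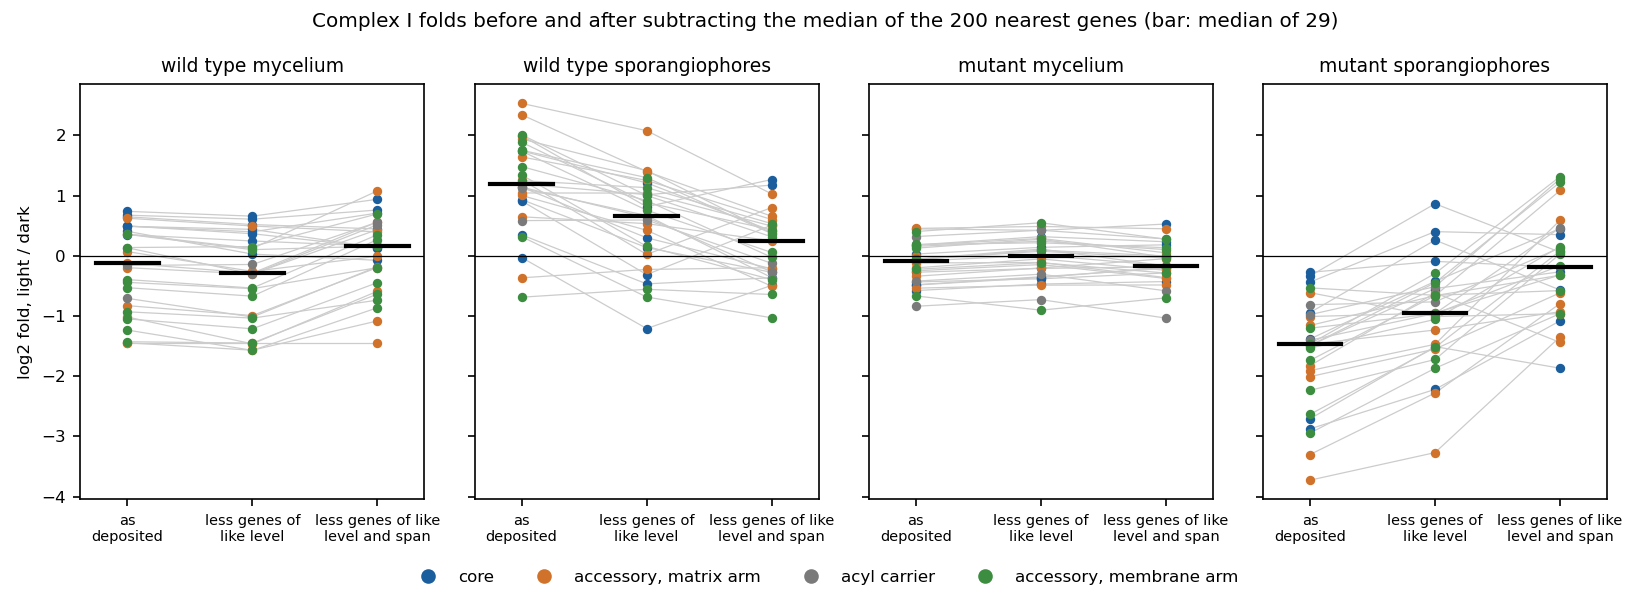
Log2 fold change of each complex I gene (y axis) as deposited, less the median of the 200 genes nearest in expression level, and less that of the 200 nearest in level and gene span (x axis), in 4 panels. Black bars are medians of 29 genes, which go from 1.19 through 0.67 to 0.25 in wild type sporangiophores and from -1.47 through -0.95 to -0.19 in mutant sporangiophores.

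In wild type mycelium the number of complex I genes called depended on the setting. In the authors' deposited values 3 of 29 were lower in light and 1 was higher, while 4.18% of all genes were lower and 9.86% higher. With folds centred on the median of those other than 0, 9 were lower and 0 higher, and less the genes of like level 7 were lower and 0 higher. With genes under the median log2 CPM left out, 8 were lower and 1 higher. The shares of all genes under these changed settings are not given here, so these counts do not set the members apart. Of the genes nearest in log2 CPM, 10.1% were lower and 17.3% higher, near the members' 10.3% for lower calls and above their 3.45% for higher ones. Of those nearest in log2 CPM and span, 13.4% were lower and 13.6% higher. Ndufs6 fell by 1.45 (FDR 0.0036), NDUFB7 by 1.23 (FDR 0.0011) and NDUFA11_2 by 0.93 (FDR 0.0176), and NDUFS7 rose by 0.74 (FDR 0.0469) in the authors' deposited table. The approximate interval of NDUFS7 ran from 0.21 to 1.27. The median fold of the members was -0.12 in the authors' deposited table, and that of all genes was 0 (0.39 over folds other than 0).

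The core genes of wild type mycelium all had positive folds. They ran from 0.35 for NDUFS1 to 0.74 for NDUFS7 in the authors' deposited table, with Ndufv1 at 0.65, NDUFS8 and Ndufs3 at 0.50 and 0.49, NDUFV2 at 0.49 and NDUFS1_2 at 0.41, and NDUFS7 was the only one called. Of the other 21 genes, 6 had a positive fold and 15 a negative one, with a median of -0.44. The lowest were Ndufs6, NDUFA6 (-1.44, FDR 0.367) and NDUFA13 (-1.43, FDR 0.0744) in the authors' deposited table. The core genes are also longer, with a median span of 1822 bases, and the median spans of the other classes ran from 603 to 742. Across the 29 genes, fold went with the log2 of gene span with a Pearson r of 0.56 and a Spearman rho of 0.51. Over the 11163 genes of all levels with a span and a fold other than 0, these were 0.09 and 0.14. Genes of like level also differed by span. Those nearest in level and span had a median fold of -0.72 for Ndufab1 (511 bases) and 0.19 for NDUFS1 (3275 bases). For the short members of low level, NDUFA6 and NDUFA11, it was 0 and 0.20. Whether the trend is particular to the members was not tested. Role and span cannot be told apart fully in so few genes. Less the genes of like level and span, 7 of 8 core folds were above 0, with a median of 0.30. In that comparison NDUFS7 (0.94, adjusted p = 0.0062) and Ndufa6 (1.08, adjusted p = 2.7e-04) passed the approximate z test as higher, and Ndufs6 (-1.08, adjusted p = 0.0398) and NDUFB7 (-0.86, adjusted p = 0.0330) as lower. The share of all genes that passed there is not given here.

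**Figure D4:**
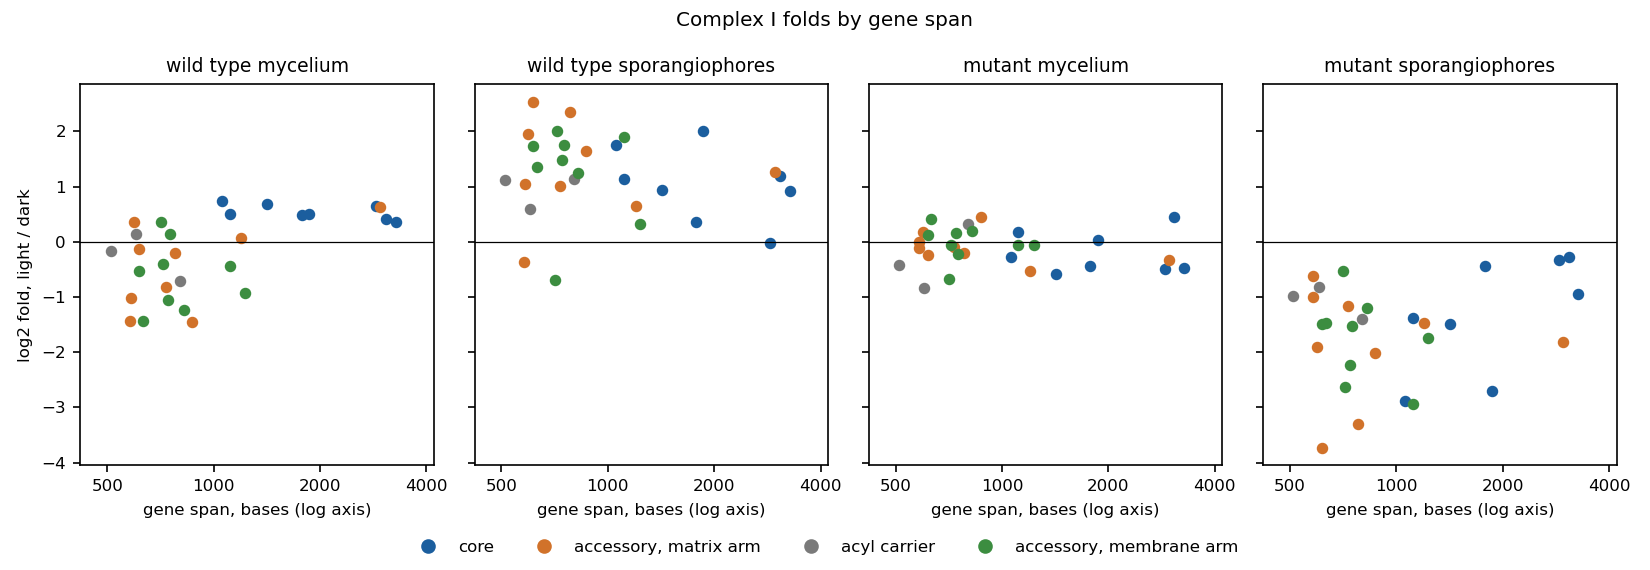
Log2 fold change in light against dark (y axis) of each complex I gene by gene span in bases (x axis, log scale), 1 panel per comparison, coloured by role. In wild type mycelium the 8 core genes, with spans from 1057 to 3275 bases, lie between 0.35 and 0.74, and 15 of the other 21 lie below 0.

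In mutant mycelium 0 of the 29 genes were called by the authors' edgeR test in the deposited table, where 0.541% of all genes were called higher and 0.576% lower. Among the genes nearest in log2 CPM the shares were 0.622% higher and 1.24% lower, and with span also 0.706% and 0.883%. At an unadjusted p under 0.05 there was 1 member, NDUFAB1, with a log2 fold change of -0.84 (p = 0.0083, FDR 0.237) in the authors' deposited table. No share of all genes is given at that threshold. The other folds lay between -0.67 (NDUFA11) and 0.46 (Ndufs6) in the authors' deposited table, and the median was -0.09. The median approximate standard error of a member's fold was 0.51 here, against 0.31 in wild type mycelium, 0.40 for sporangiophores of the wild type and 0.34 for those of the mutant. Of the core genes, NDUFS1_2 (0.45), Ndufs3 (0.18) and NDUFS8 (0.03) had positive folds, and Ndufv1 (-0.49), NDUFS1 (-0.48), NDUFV2 (-0.43) and NDUFS7 (-0.27) were among those with negative ones in the authors' deposited table. The strain difference in mycelium passed for 2 members, Ndufs6 (-1.90, adjusted p = 0.0187) and NDUFB7 (-1.42, adjusted p = 0.0495), both more negative in wild type, by the approximate z test that called 4.37% of all genes more negative and 10.1% more positive there. In a t reference with 12 degrees of freedom, neither passed. That number assumes 1 fit of all 8 groups, while the mutant mycelium table has its own log2 CPM values, so it may not apply. Less the genes of like level and span, Ndufs6 and NDUFB7 had adjusted p values of 0.0806 and 0.218. In that last comparison NDUFAB1 passed as more positive in wild type (1.55, adjusted p = 0.0039), as did 6.42% of all genes.

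Taken by gene, 13 members were called higher in wild type sporangiophores and lower in mutant sporangiophores and in no other table. Another 3 with those same calls were also called in wild type mycelium, Ndufs6 and NDUFB7 as lower and NDUFS7 as higher. In 6 members the mutant sporangiophores gave the only call, and NDUFS1_2 was called in wild type sporangiophores alone. NDUFA11_2 was lower in wild type mycelium and in mutant sporangiophores. Ndufv1, NDUFV2, NDUFA6, NDUFA6_2 and NDUFA11 were called in no table.

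Several subunits had more than 1 gene, and the copies differed in level and in fold. Levels are given here as average log2 CPM per kilobase of gene span, and reads shared between copies could not be told apart, since the counting rule is not given in the sources used here. Of the NDUFA6 copies, Ndufa6 had 8.22, NDUFA6_2 6.71 and NDUFA6 3.65 on that scale. In light-dark fold, Ndufa6 was called in both sporangiophore tables (1.94 and -1.91), while NDUFA6_2 had 1.04 and -1.01 and NDUFA6 -0.37 and -0.61, none of them called, in the authors' deposited tables. NDUFA6 had the widest approximate interval of that trio, -1.91 to 1.18 in wild type sporangiophores, which contains the fold of NDUFA6_2.

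NDUFA11, a membrane arm subunit related to mitochondrial import proteins, had a low copy (NDUFA11, 4.62 per kilobase) and a high one (NDUFA11_2, 8.12 per kilobase). The high copy was called lower in mutant sporangiophores (-1.74, FDR 2.0e-09) and the low copy was not (-0.53, FDR 0.312) in the authors' deposited table. Of the NDUFS1 copies, the large iron-sulfur subunit next to the flavoprotein, NDUFS1 had 6.85 and NDUFS1_2 5.17 per kilobase. Both were called higher in wild type sporangiophores (0.91 and 1.19), but in mutant sporangiophores NDUFS1 was called (-0.94) and NDUFS1_2 was not (-0.27) in the authors' deposited tables, with overlapping approximate intervals of -1.43 to -0.45 and -0.94 to 0.39. The acyl carrier genes Ndufab1 (8.17), NDUFAB1_2 (7.73) and NDUFAB1 (7.03) were closer in level per kilobase, and all of them were called lower in mutant sporangiophores. Differences in fold between copies were not tested.

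Most calls among the other respiratory complexes in sporangiophores had the direction of those of complex I, and no test compared complex I with them. In the authors' deposited table for wild type sporangiophores, 4 of 5 complex II genes, 8 of 15 of complex III and cytochrome c, 7 of 15 of complex IV and 13 of 24 of ATP synthase genes passed as higher, beside 7.23% of all genes. The lower calls in these 4 groups came to 1, QCR1 (-1.02, FDR 0.0489) of complex III, in the authors' deposited table. The medians were 1.52 for complex II, 1.34 for complex IV and 1.53 for ATP synthase, beside 1.19 for complex I. In mutant sporangiophores 4 of 5, 11 of 15, 10 of 15 and 15 of 24 genes of those groups fell in the authors' deposited table, with medians of -2.31, -2.24, -2.05 and -1.64 beside -1.47 for complex I. Over all genes 12.3% were lower. QCR1 was also the only gene of these groups called higher there (0.80, FDR 0.0442) in the authors' deposited table. Less the genes of like level and span, the medians of those 4 groups in wild type sporangiophores were 0.63, 0.24, 0.46 and 0.45, beside 0.25 for complex I. In the mutant they were -1.19, -0.21, -0.87 and -0.46, beside -0.19 for complex I.

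The bypass enzymes, which oxidise NADH or ubiquinol without pumping protons, comprised 9 genes. Of these, NDE2 (1.20, FDR 0.0420) and NDI2 (1.04, FDR 0.0236), alternative NADH dehydrogenases by symbol, were called higher in wild type sporangiophores in the authors' deposited table. In mutant sporangiophores AOX, the alternative oxidase, fell by 2.07 (FDR 1.6e-06), NDE2 by 1.72 (FDR 1.0e-05) and NDI2 by 1.10 (FDR 9.4e-04) in the authors' deposited table. In wild type mycelium NDE2 (1.52, FDR 1.9e-04) and NDE4 (1.01, FDR 0.0043) rose in the authors' deposited table, where 1 of 29 complex I genes and 9.86% of all genes did. The bypass genes had a median span of 2041 bases, against 802 for complex I. Less the genes of like level and span, the median fold there was 0.10 for the bypass genes and 0.16 for complex I. In the authors' deposited table for mutant mycelium, NDE was called lower at -1.28 (FDR 0.0235). Of the 24 tricarboxylic acid cycle genes, which supply NADH, 7 passed as higher in light in wild type sporangiophores with 0 lower (7.23% and 1.18% over all genes), and 10 were lower and 0 higher in mutant sporangiophores (12.3% and 3.31% over all genes), in the authors' deposited tables. In wild type mycelium 7 of them were higher and 1 lower (9.86% and 4.18% over all genes), and in mutant mycelium 0 were higher and 3 lower (0.541% and 0.576% over all genes), in the authors' deposited tables.

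**Figure D5:**
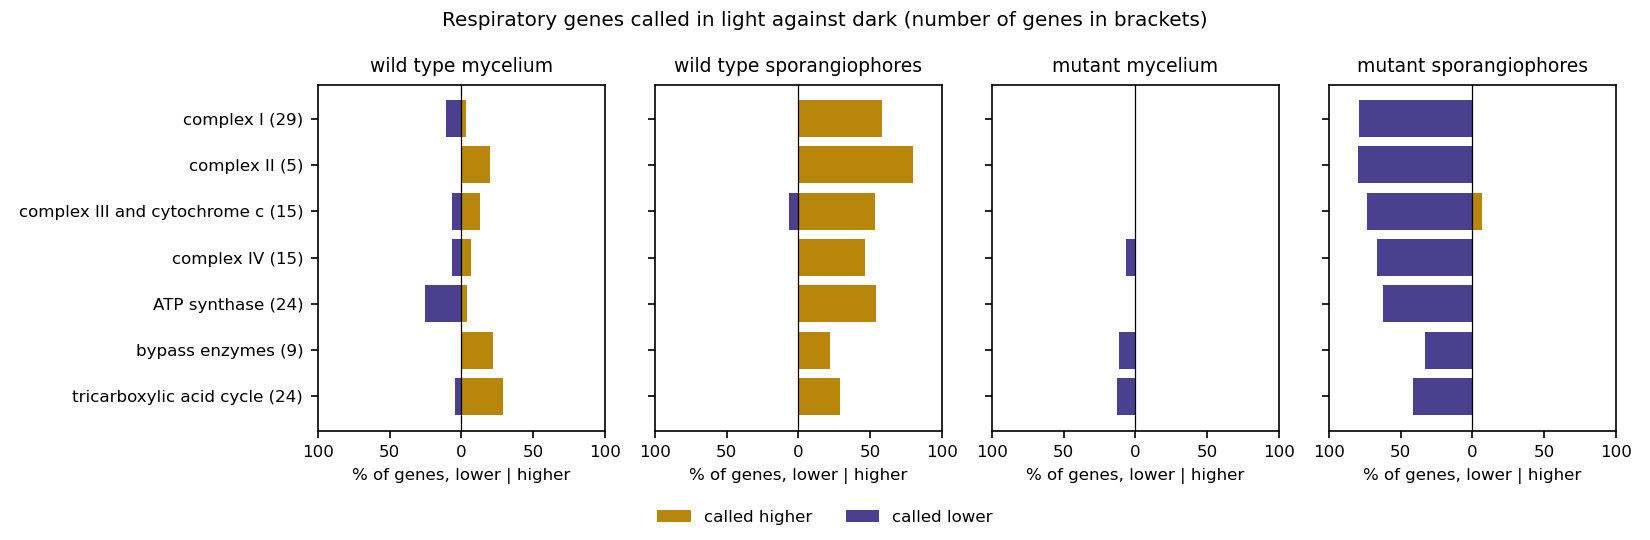
Share of genes called higher (right of 0) and lower (left of 0) in light, in percent (x axis), for complex I and 6 other groups of respiratory genes (y axis, number of genes in brackets), 1 panel per comparison. Complex I has 58.6% higher in wild type sporangiophores and 79.3% lower in mutant sporangiophores, and complex III has bars on both sides in both of these panels.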

How the data were processed

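Per the labels' protocols, total RNA came from Trizol extraction and was amplified (MessageAmp-II) before sequencing. Bowtie and edgeR are named in the submitters' processing notes, with versions, genome build, annotation, counting rule and filters not given in the sources used here. Each of the 4 deposited tables holds the authors' log2 fold change, average log2 CPM, likelihood ratio score, p-value and FDR per gene. Each deposited p-value matched a chi-square tail, and each deposited FDR the Benjamini-Hochberg adjustment of those p-values. All tables but that of mutant mycelium share 1 log2 CPM per gene (14410 genes). Values per library were not analysed here, so depth is unknown and the planned count test was replaced by the authors' FDR under 0.05.

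IDs were joined to locus tags of Phybl2 (99.6% matched in each table), and symbols and gene spans came from that table. No sequences or coordinates are printed. An approximate standard error was set to the size of the fold over the root of its likelihood ratio. Genes with a fold of exactly 0 have none, and were left out of approximate tests (3193 and 2793 genes in wild type and mutant mycelium, 9 and 0 in sporangiophores). Nearest genes exclude members, and each counts once in the shares over nearest genes. The scripts, run with Python 3.11.15, numpy 2.4.6, pandas 2.3.3 and scipy 1.17.1, were tested on simulated data. The members are named, except 1 that is counted but not reported here by name, with the core subunits, the largest called folds and the gene copies described first. The members and lists were chosen with earlier results of these data known. The choice of the 4 libraries set aside rests on the measured outcome, and p-values cover only the spread among the 20 kept.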

Additional observations from a re-analysis of the deposited data

Results flagged for a closer look

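The light-dark folds of 25 complex I genes differed between wild type and mutant sporangiophores by the approximate z test with Benjamini-Hochberg adjustment over all genes, which called 14.0% of all genes more positive in wild type. Less the genes of like level 15 members passed as more positive, and less those of like level and span 8 did. The largest differences, wild type less mutant on the log2 scale, were 6.26 for NDUFS4, 5.65 for Ndufa5, 4.83 for NDUFA1, 4.70 for NDUFS8, 4.65 for NDUFB8, 4.62 for NDUFS7, 3.85 for Ndufa6 and 3.72 for Ndufb9. The folds of each of these 8 genes were positive in wild type and negative in the mutant. Less the genes of like level and span, the differences of Ndufa6 (-0.22), Ndufb9 (-0.06) and NDUFB8 (0.24) did not pass.

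In mycelium 2 genes differed between the strains by the same approximate test, which called 4.37% of all genes more negative in wild type. Ndufs6 had a difference of -1.90 and NDUFB7 of -1.42. Neither passed with a t reference of 12 degrees of freedom, nor less the genes of like level and span (adjusted p = 0.0806 and 0.218, approximate z test).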

How the results depend on the processing

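Counts are of the 29 members, and the share of all genes called under a setting is given only where stated. With an F reference of 12 degrees of freedom for the likelihood ratio, 8 were higher in wild type sporangiophores in place of 17 and 0 higher in wild type mycelium in place of 1, while 18 of 23 lower calls stood in number in mutant sporangiophores. With the degrees of freedom of the 2 groups compared (2 to 4), 0 members and 0% of all genes were called in each table, so that setting shows nothing of the members. With folds centred on the median of those other than 0, 9 were lower and 0 higher in wild type mycelium, in place of 3 and 1. Less the 200 genes nearest in log2 CPM, 7 were lower and 0 higher there, 4 were higher in wild type sporangiophores, 14 were lower in mutant sporangiophores, and the sporangiophore difference passed for 15 members more positive in wild type and 1 more negative. Less the genes nearest in log2 CPM and span, 2 were higher and 2 lower in wild type mycelium, 1 higher and 1 lower in wild type sporangiophores, and 3 higher and 5 lower in mutant sporangiophores. The sporangiophore difference then passed for 8 more positive and 2 more negative, and the mycelium difference for 1 more positive and 0 more negative. In that setting 9.63% and 5.76% of all genes passed in sporangiophores, and 6.42% and 5.16% in mycelium. With an FDR under 0.01, or a log2 fold of at least 1, 0 were higher in wild type mycelium. With genes under the median log2 CPM left out 8 were lower there, and with folds of exactly 0 left out 5 were, as fewer genes were adjusted for. With a t distribution of 12 degrees of freedom 0 members differed in mycelium in place of 2. The other counts stayed within 1.5 times the reported ones.

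Some folds changed sign. Less genes of like level, NDUFS1 turned to -0.31 in wild type and 0.26 in mutant sporangiophores. Less genes of like level and span, wild type sporangiophores gave -1.03 for NDUFA11_2, -0.27 for NDUFAB1_2, -0.024 for Ndufb9 and -0.22 for Ndufs3. Other positive folds that missed the threshold as deposited turned negative there too. Among them were Ndufa2 (-0.51), NDUFA13 (-0.40), Ndufab1 (-0.36), NDUFV2 (-0.36) and NDUFAB1 (-0.12). Mutant sporangiophores then gave 1.32 for NDUFA13, 0.15 for NDUFA8, 0.13 for NDUFAB1, 0.47 for NDUFAB1_2, 1.22 for NDUFB11, 0.080 for NDUFB8, 1.09 for Ndufa2, 0.59 for Ndufa6, 1.28 for Ndufab1, 0.033 for Ndufb9 and 0.45 for Ndufs3. The uncalled folds of Ndufv1 (0.06) and NDUFV2 (0.35) turned positive there too. The cause of these changes of sign was not tested.

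No paired analysis was possible because values per library were not analysed here, and leaving out each replicate was not run for the same reason. No member was an assembly factor, so that alternative gave no value. Depth is unknown. Reads from gene copies, a table direction known from its title alone, and a choice of libraries made on the outcome limit each value above.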

Other observations

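Symbols outside the NDUF rule, NUXM, NUXM_2, NUVM and N19M, resemble the names that complex I subunits carry in the yeast Yarrowia lipolytica, and were looked at after the values were seen. In mutant sporangiophores NUVM fell by 2.78, NUXM by 2.68 and NUXM_2 by 1.43, all called, and N19M had -0.18 (FDR 0.831) in the authors' deposited table. In wild type sporangiophores NUXM_2 rose by 1.20 (FDR 0.0269), and NUXM (FDR 0.0836), NUVM (0.54) and N19M (0.03) missed the threshold in the authors' deposited table. In wild type mycelium NUVM fell by 1.41 (FDR 0.0249) and NUXM_2 by 1.20 (FDR 0.0065), while NUXM had 0.77 (FDR 0.321) in the authors' deposited table.

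In mycelium the folds of the 2 strains had a Pearson r of -0.54 and a Spearman rho of -0.51 across the 29 members, beside -0.04 and -0.10 over 14162 genes. These are descriptions across genes that share level and span, and 0 members were called in mutant mycelium.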
